A study of Mus musculus with 6 samples.

Results

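AP-1 is a transcription factor made of 2 proteins of the basic leucine zipper class, drawn from the Fos family (Fos, Fosb, Fosl1, Fosl2) and the Jun family (Jun, Junb, Jund). These 7 genes were followed here across 6 arrays of mouse fibroblasts, on every probe set whose platform annotation names 1 of them alone. That rule found 11 probe sets of 45101 on the array, 6 for the Fos family and 5 for the Jun family. The genes were chosen by values of the same comparison, since lower Fos and Junb in tethered cells had already been seen on these arrays. Their differences between tethered and untethered cells are therefore described without a test and support nothing further.

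All samples were NIH3T3 cells, an immortalised mouse fibroblast line, of a single clone (clone M) in which lacO, the DNA element that the lac repressor binds, is inserted at multiple places. In the 3 tethered samples the insertion lay at the nuclear periphery, and in the 3 untethered samples it lay centrally. Both groups carry the insertions and were grown in the same serum-containing medium. The labels name neither the protein that tethers nor an agent that releases it. They do not say whether arrays of a group came from separate cultures, so the spread between arrays may be partly technical. The study addressed transcription of regions brought to the inner nuclear membrane.

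Fos proteins need a Jun partner to bind DNA, whereas Jun proteins also pair among themselves. Fos, Fosb, Jun and Junb are immediate early genes, switched on within minutes of serum, growth factors or stress, and the Fos messenger decays quickly. Fosl1 and Fosl2 (also called Fra-1 and Fra-2) usually follow later, and Jund is made more steadily. In fibroblasts AP-1 is known for driving re-entry into the cell cycle after serum and for matrix-degrading enzymes.

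The upstream sequences of Fos, Fosb, Jun and Junb, named above as immediate early genes, are shown. Fos, Jun and Junb had the largest differences of the members, and Fosb did not. Those of Fosl2 and Jund were searched and are not printed. A promoter entry in the RefSeq table of build GRCm38.p6 was found for 6 of the 7 genes, all but Fosl1. The stretches below are the 250 bases before the annotated start, read on the gene's own strand. Fos lies on the plus strand at chr12:85473640-85473889, Fosb on the minus strand at chr7:19310046-19310295, Jun on the minus strand at chr4:95052223-95052472 and Junb on the minus strand at chr8:84978749-84978998. Capitals mark TGACG, the half-site of the cyclic AMP response element, the TATA letters TATAAA, and TGACATCA, known in the Jun promoter as a site that AP-1 itself binds.
Fos: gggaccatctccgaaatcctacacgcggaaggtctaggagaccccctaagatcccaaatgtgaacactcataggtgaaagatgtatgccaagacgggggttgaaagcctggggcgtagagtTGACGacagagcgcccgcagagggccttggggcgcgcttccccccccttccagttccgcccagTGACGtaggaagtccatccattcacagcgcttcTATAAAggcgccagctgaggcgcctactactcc
Fosb: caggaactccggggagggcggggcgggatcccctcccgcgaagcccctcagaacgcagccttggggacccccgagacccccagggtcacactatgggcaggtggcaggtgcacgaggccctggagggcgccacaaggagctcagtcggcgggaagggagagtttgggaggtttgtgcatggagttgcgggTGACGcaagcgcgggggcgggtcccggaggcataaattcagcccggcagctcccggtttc
Jun: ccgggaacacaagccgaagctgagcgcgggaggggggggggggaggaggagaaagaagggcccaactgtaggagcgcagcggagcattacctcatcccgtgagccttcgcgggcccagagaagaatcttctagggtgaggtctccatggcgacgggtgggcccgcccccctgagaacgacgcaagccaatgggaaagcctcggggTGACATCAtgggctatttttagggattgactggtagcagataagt
Junb: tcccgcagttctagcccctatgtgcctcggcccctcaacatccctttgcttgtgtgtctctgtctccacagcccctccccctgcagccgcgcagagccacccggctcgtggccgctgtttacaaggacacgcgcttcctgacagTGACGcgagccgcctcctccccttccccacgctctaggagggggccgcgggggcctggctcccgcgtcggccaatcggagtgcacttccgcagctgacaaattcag

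The half-site TGACG was present in 3 of the 6 members' windows. In Fos it began 129 and 66 bases before the start, in Fosb 60 bases and in Junb 106 bases before it. It was also present in 17.8% of the 32851 windows of the same length in the table. TGACATCA began 45 bases before the start of Jun and occurred in 2.93% of all windows, and TATAAA began 33 bases before the start of Fos and occurred in 12.4%. Both strands were searched. The full response element TGACGTCA, the AP-1 site TGACTCA and the CArG box bound by serum response factor were in 0 of the 6 windows, against 1.55%, 4.46% and 1.47% of all windows. GGGCGG was in 4 windows (Fos, Fosb, Fosl2 and Jun; 32.7% of all) and CCAAT in 2 (Jun and Junb; 33.8% of all). TGACG lies within TGACGTCA, so those 2 searches overlap. A match describes letters only, and a motif outside the window is not counted.

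The files give each probe set's brightness on each array as a linear intensity, which was also taken to log2 here. A log2 fold change is the mean of the tethered minus the mean of the untethered arrays. Median intensities were 482.4 to 490.9 over the 6 arrays, so the arrays were on a common scale at the median. The bright end was less even. The 95th percentiles were 3417, 3485 and 3896 on tethered and 3385, 3939 and 3912 on untethered arrays 1, 2 and 3. Both arrays numbered 1, 1 of each group, stood apart from the other 4 on the first principal component, which held 62.1% of the variance. Several measures of the RNA also varied among the untethered arrays. The log2 signal at the 5' end minus that at the 3' end of the transferrin receptor control, which falls when RNA is degraded or incompletely copied, was -2.81, -3.07 and -1.52 on untethered arrays 1, 2 and 3 and -2.09, -1.67 and -1.55 on tethered arrays 1, 2 and 3. The 5' signal of the ribosomal 18S RNA control ran from 10.5 to 10.9 (log2) in tethered and from 11.1 to 12.2 in untethered arrays, without overlap. The 5' minus 3' signal of the Gapdh control did not overlap either, at 0.082 to 0.095 in tethered and -0.060 to 0.076 in untethered arrays. That of the actin control was -0.29 to -0.10 in tethered and -0.56 to -0.15 in untethered arrays, lowest on untethered array 2. All 12 fibroblast markers on the array were above the filter on dim probe sets, with summed intensities of 87552 to 118380 in tethered and 107470 to 116800 in untethered arrays. All 12 had log2 fold changes below 0, with a median of -0.15 and groups that did not overlap for 1 of them, Pdgfrb (-0.73, SE 0.24), a receptor for platelet-derived growth factor. Of the markers of other cell types, those for macrophages had 3 of 7 genes above the filter, endothelial cells 3 of 7, epithelium 2 of 6, muscle 4 of 6 and adipocytes 2 of 4. No marker was listed at 0 on all arrays. The summed endothelial markers were 3065 to 3133 in tethered and 2789 to 2950 in untethered arrays, the summed muscle markers were 4355 to 4680 and 4204 to 4335, and the sums of the other 3 lists overlapped between the groups. The part of RNA quality and of other cell types in the results that follow was not tested. In a population of cells, fewer cells making a messenger and less of it per cell cannot be told apart.

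Across the table, limma called 0 of 22518 probe sets tested (0%) at an adjusted p under 0.05, and the smallest adjusted p was 0.999. Without adjustment, p was under 0.05 for 536 probe sets (2.38%), 376 lower and 160 higher in tethered cells. That split depended on the setting, at 277 lower and 249 higher after quantile normalization, 390 and 497 without empirical Bayes, and 466 each without untethered array 3. No member was therefore called. Of the 11 member probe sets, 10 passed the filter, which asks for a mean log2 intensity above the median of all probe sets, 8.93. The 1 left out was the dimmer probe set of Jund. Fos passed only through the untethered group, whose mean of 10.02 lay above the filter while the tethered mean of 8.50 lay below it. Untethered array 3, at 8.905, also lay below the filter, so Fos exceeded it on untethered arrays 1 and 2 alone.

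Fos, the founding member and the gene in the family with the largest difference, is read by 1 probe set (1423100_at, gene ID 14281, chromosome 12). Its intensity was 289.5, 396.1 and 414.6 on tethered arrays 1, 2 and 3 and 2266, 1025 and 479.4 on untethered arrays 1, 2 and 3. All 3 tethered values lay below all 3 untethered values, and untethered array 3 was close to the tethered ones. The group means were 8.50 ± 0.28 and 10.02 ± 1.12 (log2, SD, n = 3 each), a log2 fold change of -1.52 (SE 0.55), which is 2.86-fold lower in tethered cells. Only 0.21 log2 units separated the highest tethered from the lowest untethered array, while the untethered arrays spanned 2.24 among themselves. 

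Fosb, which resembles Fos and has a short form lacking part of its C terminus, was read by 1422134_at (gene ID 14282, chromosome 7). Its intensities were 717.9, 761.9 and 752.4 in the tethered arrays and 993.5, 775.1 and 800.6 in the untethered arrays, in the order of their numbers. The groups did not overlap, yet only untethered array 1 stood clear of the other 5. The log2 fold change was -0.19 (SE 0.11), and the gap between the groups was 0.025 log2 units. After quantile normalization the gap closed (-0.011) and the groups overlapped.

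Fosl1, which lacks the strong activating region of Fos, followed the array number on both of its probe sets (gene ID 14283, chromosome 19). On 1417487_at the intensities were 1177, 4305 and 5489 in the tethered arrays and 2190, 4607 and 4808 in the untethered arrays. On 1417488_at they were 579.1, 2568 and 3325 in the tethered and 1029, 1920 and 2686 in the untethered arrays. Both probe sets were lowest on the 2 arrays numbered 1, whatever the group. The difference between arrays numbered 1 and the rest was -1.57 and -1.74 log2 units, against -0.27 (SE 0.64) and -0.03 (SE 0.72) between tethered and untethered cells. With the replicate number also fitted, those SEs were 0.22 and 0.26. Values below the other 4 on both arrays numbered 1 were common, in 23.3% of the probe sets tested and in 3 of the 11 here, the pair for Fosl1 and the dim probe set of Jund. Without tethered array 1 the sign of Fosl1 turned, to 0.41 and 0.74, and 1417488_at was also above 0 without untethered array 2 (0.035) or 3 (0.28).

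Fosl2, the other late Fos protein, gave 2 readings that differ (gene ID 14284, chromosome 5). On 1437247_at the intensities were 2009, 1576 and 2066 in the tethered and 2362, 2590 and 2323 in the untethered arrays, with no overlap and a log2 fold change of -0.37 (SE 0.12). On 1422931_at they were 1256, 1347 and 1634 in the tethered and 1366, 1437 and 1435 in the untethered arrays, which overlapped. The log2 fold change of that probe set was -0.01 (SE 0.11), and 0.019 after quantile normalization. With single arrays left out it ran from -0.12 to 0.071.

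Jun, the Jun protein with the strongest activating region, was read by a bright pair of probe sets, 1417409_at and 1448694_at (gene ID 16476, chromosome 4). On 1417409_at the intensities were 1437, 5121 and 5699 in the tethered and 8814, 6596 and 5877 in the untethered arrays. On 1448694_at they were 717.4, 2468 and 2731 in the tethered and 4596, 4184 and 2959 in the untethered arrays. Tethered array 1 was far below the other 5 on both, and those 5 ran from 5121 to 8814 on the first and from 2468 to 4596 on the second. The groups did not overlap, by gaps of 0.044 and 0.12 log2 units. The log2 fold changes were -1.01 (SE 0.54) and -1.19 (SE 0.53), with SDs of 1.11 and 1.07 in the tethered and 0.30 and 0.33 in the untethered arrays (n = 3 each). Without tethered array 1 they were -0.37 and -0.57.

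Junb, a Jun protein that can restrain Jun on shared sites, was read by 1415899_at (gene ID 16477, chromosome 8). Its intensities were 785.0, 1035 and 1248 in the tethered and 4975, 2093 and 1389 in the untethered arrays. Untethered array 1 was the highest by far, and untethered array 3 was next to the tethered arrays. The group means were 9.97 ± 0.34 and 11.25 ± 0.94 (log2, SD, n = 3 each), and the log2 fold change was -1.28 (SE 0.47), which is 2.43-fold lower in tethered cells. The spread within the untethered arrays (1.84 log2 units) was many times the gap between the groups (0.15).

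Jund, whose levels change little after serum, was read brightly by 1449117_at and dimly by 1440265_at (gene ID 16478, chromosome 8). On 1449117_at the intensities were 8205, 5141 and 5011 in the tethered and 9971, 8484 and 4945 in the untethered arrays. The groups overlapped, since tethered array 1 was among the high values and untethered array 3 was the lowest of all. The log2 fold change was -0.33 (SE 0.32), and the SE was 0.15 with the replicate number also fitted. On 1440265_at the intensities stayed between 185.2 and 216.0 on all 6 arrays, with a log2 fold change of -0.06 (SE 0.076). This probe set stood at percentile 21.5 of all probe sets by mean signal, and no detection calls were used here.

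**Figure D1:**
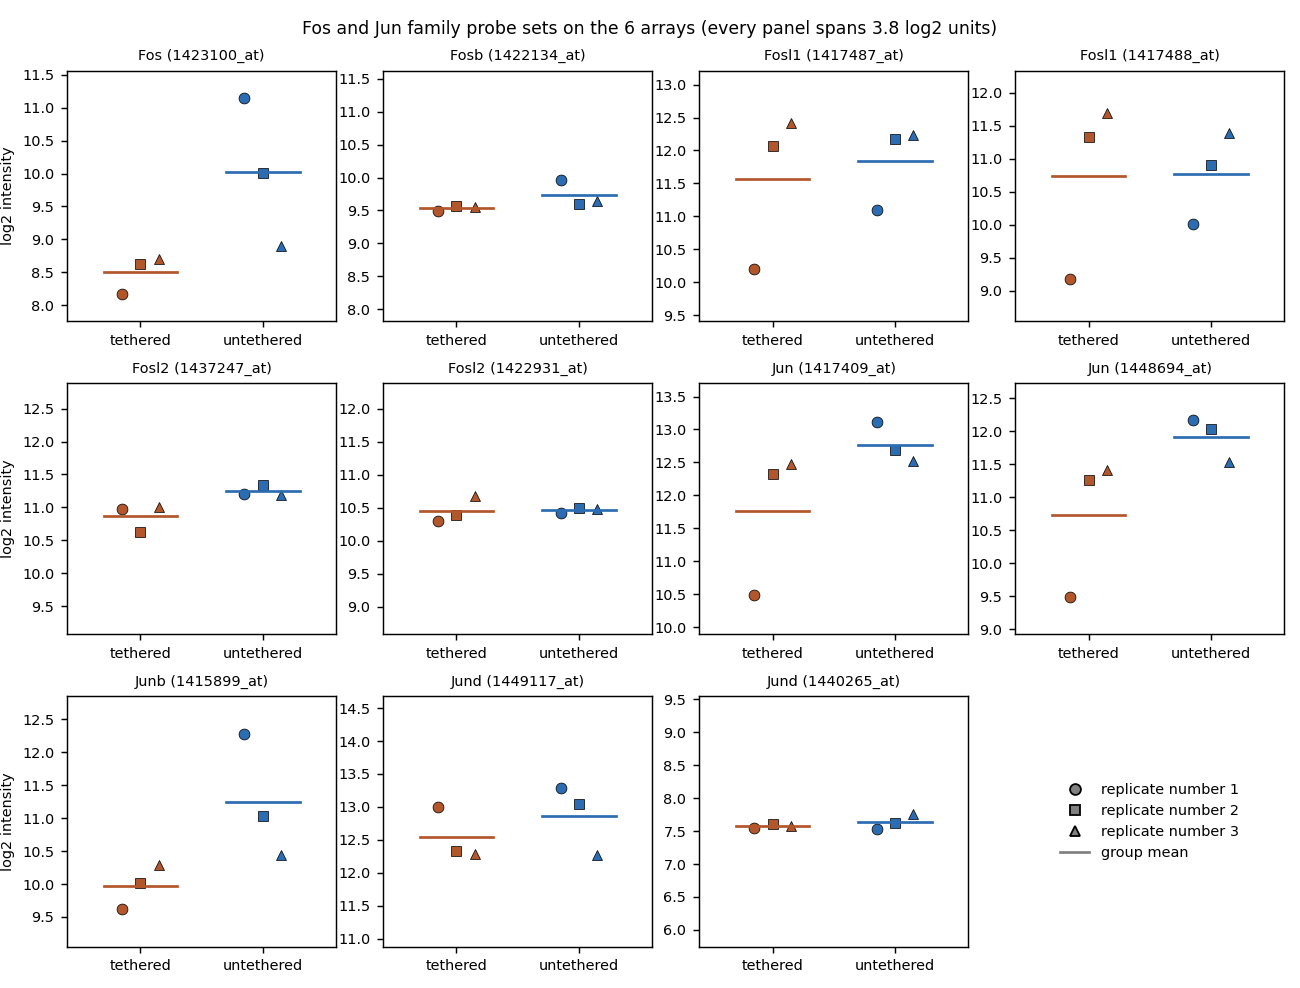
Log2 intensity of each of the 11 probe sets on the 6 arrays, tethered at left and untethered at right; symbols give the replicate number, horizontal lines the group means, and every panel spans the same range. Fos and Junb are spread widely in untethered cells, Jun has 1 low tethered array, and both Fosl1 probe sets are lowest on the arrays numbered 1.

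All 11 member probe sets had log2 fold changes below 0, with a median of -0.33, against a median of -0.016 and 55.9% below 0 among the probe sets tested. After quantile normalization 1 of them, 1422931_at for Fosl2, was above 0. The tethered arrays lay wholly below the untethered ones on 6 of the 11 (Fos, Fosb, 1 of Fosl2, both of Jun, and Junb) and wholly above on 0. Over all probe sets tested these shares were 3.85% and 4.3%. Because the genes were picked for this contrast, nothing is read from the comparison of those shares. With all 6 arrays the sizes fell into a pair of ranges. Fos, Jun and Junb stood between -1.01 and -1.52, each beyond 99.9% of tested probe sets in size, and the remaining members stood between -0.01 and -0.37. Nothing is read from that rank either. The ranges rested on the arrays numbered 1. Without both of them Jun (-0.20 and -0.44) fell among the remaining members, such as 1437247_at of Fosl2 (-0.44). Fos (-0.79) and Junb (-0.59) were then still the largest.

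Setting arrays of the same number side by side shows how uneven the differences were. For Fos the untethered array was 7.83-fold higher than the tethered one among the arrays numbered 1, 2.59-fold higher among those numbered 2 and 1.16-fold higher among those numbered 3. Junb gave 6.34-fold, 2.02-fold and 1.11-fold in the same order. Jun gave 6.13-fold, 1.29-fold and 1.03-fold on 1417409_at and 6.41-fold, 1.70-fold and 1.08-fold on 1448694_at. The arrays numbered 1 thus held most of the difference of these 3 genes. Of those arrays, the untethered one stood far from the other 5 for Fos and Junb and the tethered one for Jun. Untethered arrays 1 and 2, the highest for all 3 genes and for the bright probe set of Jund, had the lowest transferrin receptor ratios (-2.81 and -3.07). Untethered array 3 (-1.52) lay near the tethered arrays (-2.09 to -1.55). Between untethered arrays 1 and 2, array 1 was higher for all 3 genes while array 2 had the lower ratio. The actin control stood at -0.31 on untethered array 1 and -0.29 on tethered array 1, the highest and lowest arrays for these genes. The Gapdh control was 0.038, -0.060 and 0.076 on untethered arrays 1, 2 and 3 and 0.095, 0.088 and 0.082 on the tethered ones. That is the reverse of these genes' array order, except that untethered arrays 1 and 2 change places. The 18S signal was 12.1, 12.2 and 11.1 on untethered and 10.9, 10.5 and 10.8 on tethered arrays 1, 2 and 3. The part of RNA quality was not tested. The tethered array was lower at all 3 numbers for 6 member probe sets, and for 16.8% of all probe sets tested. Those 6 are the ones whose groups do not overlap, where this must hold, so nothing further is read from it. For 1437247_at of Fosl2 and 1449117_at of Jund the largest difference lay at number 2 instead (-0.72 in both).

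**Figure D2:**
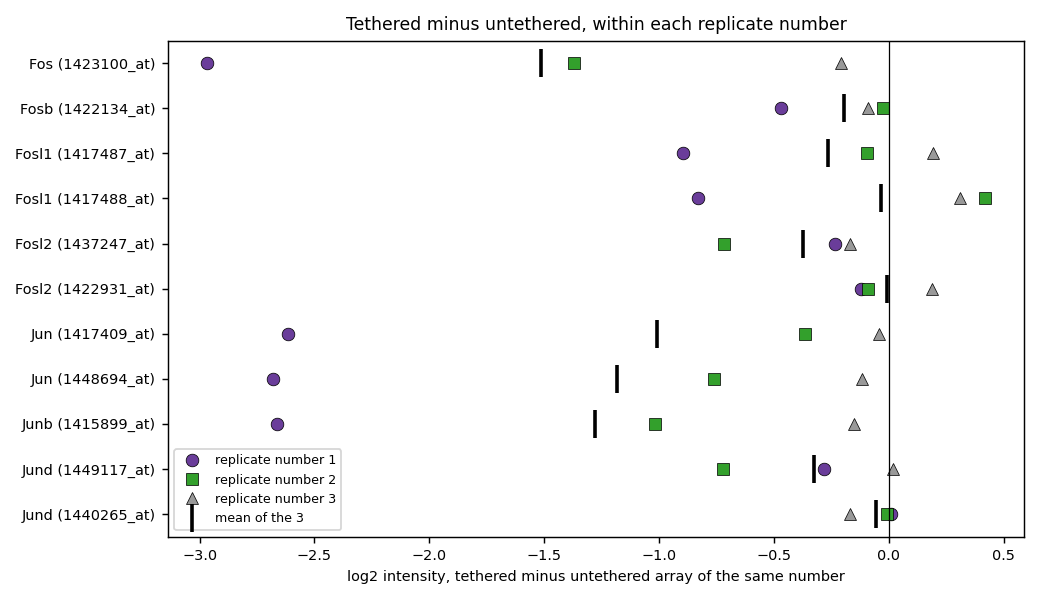
Log2 intensity of the tethered minus the untethered array of the same replicate number for each probe set, with a bar at the mean of the 3. For Fos, Jun and Junb the arrays numbered 1 differ by -2.62 to -2.97 and those numbered 3 by -0.04 to -0.21.

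For Fos, Jun and Junb leaving out an array could change only the size of the difference. Their groups do not overlap, so the sign was fixed beforehand and is no sign of stability. Fos ran from -2.07, without untethered array 3, to -0.95, without untethered array 1. Junb ran from -1.68 to -0.76 over the same pair of omissions. The probe sets of Jun ran from -1.37 to -0.37 and from -1.53 to -0.57, in both cases largest without tethered array 3 and smallest without tethered array 1. Fosb was -0.08 without untethered array 1. The bright probe set of Jund ran from -0.63, without untethered array 3, to -0.12, without untethered array 1. Without both arrays numbered 1 Fos stood at -0.79, Junb at -0.59 and Jun at -0.20 and -0.44, while 1437247_at of Fosl2 stood at -0.44 and Fosl1 at 0.05 and 0.36.

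**Figure D3:**
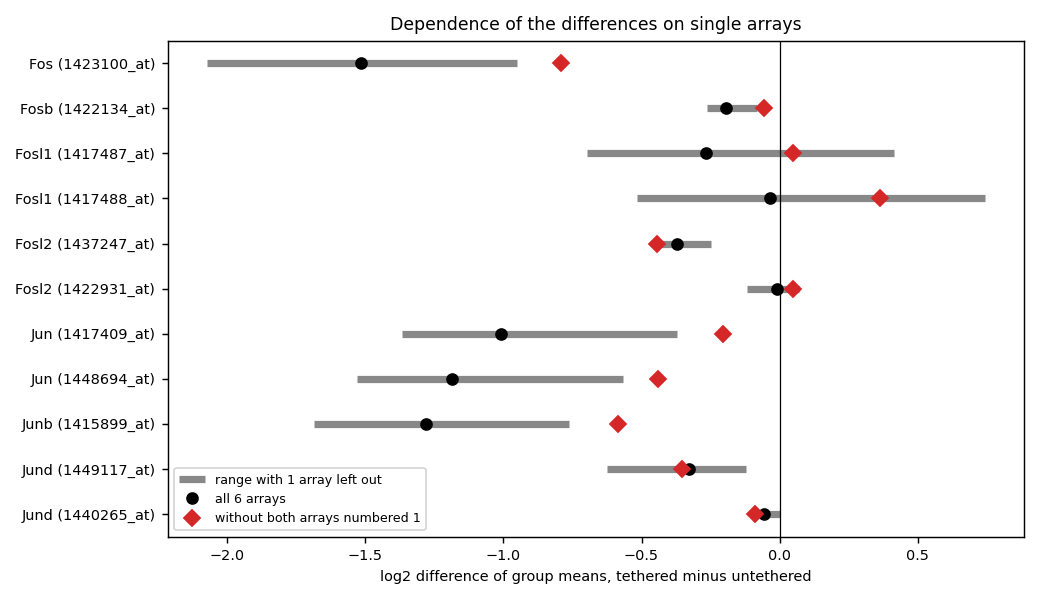
Log2 difference of group means with all 6 arrays (black dots), its range when any 1 array is left out (grey bars) and its value without both arrays numbered 1 (red diamonds). Fos, Jun and Junb, whose groups do not overlap, can only stay below 0. Both probe sets of Fosl1, 1422931_at of Fosl2 and 1440265_at of Jund cross 0.

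Fos, Junb and both probe sets of Jun put the 6 arrays in an identical order, highest in untethered 1, then untethered 2, untethered 3, tethered 3, tethered 2 and lowest in tethered 1. This was noticed after the values were seen. Among all probe sets tested, 21 (0.0933%) had that order, and these 4 were among them. The other named genes with it included Cxcl1, a neutrophil chemoattractant, and Nfkbia, the inhibitor of NF-kappaB, each on 2 probe sets, and Ier3, an immediate early gene. Cxcl1 stood at -3.14 (SE 0.97) and -1.70 (SE 0.61), Nfkbia at -2.09 (SE 0.84) and -2.15 (SE 0.81) and Ier3 at -0.57 (SE 0.098). Zfp36l1, which promotes decay of short-lived messengers, had it at -0.43 (SE 0.20). In all, the 21 probe sets named 15 genes, and some of the 21 had no gene name. The remaining genes were Cdc42ep4, Smarcal1, Zfr, Eral1, Dynlt1f, Zfp445, 1600012H06Rik and 1810058I24Rik. They stood between -0.10 (Smarcal1) and -0.38 (1600012H06Rik).

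**Figure D4:**
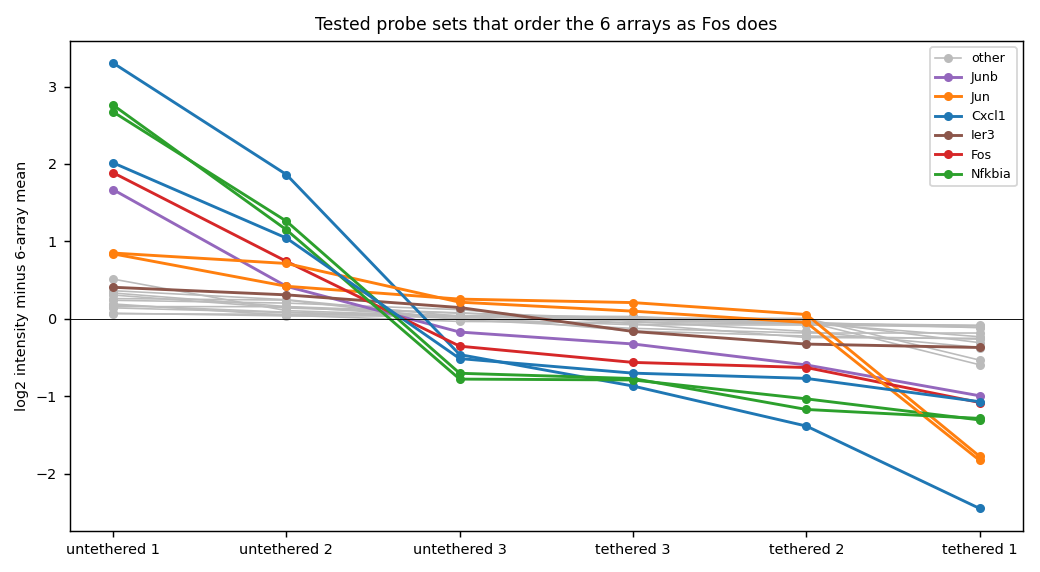
Log2 intensity minus the 6-array mean on each array, arrays set in the order that Fos gives them, for the 21 tested probe sets with that order; lines join the values of 1 probe set. By selection, all are highest on untethered array 1 and lowest on tethered array 1. Fos, Junb, Cxcl1 and Nfkbia lie furthest from their means on untethered array 1, and Jun on tethered array 1.

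Likeness was measured as Pearson's r of log2 intensities over the 6 arrays, among tested probe sets of other genes, and the 3 genes of highest r were taken for each member. The 2 arrays numbered 1 stand apart, and no p is given. The genes most like Fos were Nfkbia and Cxcl1 (both r = 0.994) and Eral1 (0.991), which encodes a mitochondrial ribosome assembly factor. Those most like Junb were Eral1 (0.992), Fos itself (0.989) and Ier2 (0.986), another immediate early gene. Jun was most like Pde7b (0.996), Ccser2 (0.994) and Pde4b (0.993), the first and last of which encode phosphodiesterases that break down cyclic AMP. Fosb was most like Gria3 (0.990), Pigu (0.983) and Cst6 (0.976), and Fosl2 was most like Fbxo38 (0.996), Thumpd3 (0.991) and Ythdf3 (0.989). Fosl1 (Ywhaq, Nqo2 and Prpf38a) and Jund (Dlgap4, Bcl9l and Epc1) had r of at least 0.995 with genes whose groups overlapped.

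The other genes of the pathway came from 6 lists, with the brightest probe set standing for each gene. Limma called 0 genes in each of them. Over all 11846 genes tested, 289 (2.44%) had an unadjusted p under 0.05, 486 (4.1%) lay wholly lower and 509 (4.3%) wholly higher in tethered cells, and the median was -0.022. The lists below are read against those shares.

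Partners of the same zipper class, from the ATF, MAF and BATF families, were represented by 12 tested genes of 14 on the array, 7 below and 5 above 0, with a median of -0.01. Maff, a small MAF protein, stood at -0.25 (SE 0.10) and was the 1 member of the list with an unadjusted p under 0.05. Atf2, which pairs with Jun, stood at -0.29 (SE 0.13), and Batf3 at 0.13 (SE 0.075). The groups overlapped in all 12 genes.

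Factors that act on the Fos promoter, such as serum response factor and its partners, gave 5 values below and 6 above 0 among 11 genes, all of those on the array, with a median of 0.003. Mrtfb, a coactivator of serum response factor, stood at -0.29 (SE 0.090) with groups that did not overlap, the 1 gene of the list with an unadjusted p under 0.05. Elk4 and Elk1, which bind beside serum response factor, stood at 0.10 (SE 0.066) and -0.10 (SE 0.10).

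Kinases that signal to AP-1 and proteins that turn Jun over gave 3 values below and 8 above 0 among 11 tested genes of 14 on the array, with a median of 0.049. All 11 lay between -0.12 and 0.12, 0 had an unadjusted p under 0.05, 1 lay wholly lower (Mapk7) and 2 wholly higher (Rps6ka3 and Map2k2). Rps6ka3, a kinase downstream of ERK, stood at 0.12 (SE 0.065), Mapk7, also called ERK5, at -0.09 (SE 0.063) and Map2k2, which activates ERK, at 0.07 (SE 0.057).

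Genes for decay or binding of short-lived messengers gave 7 of 8 values below 0, all 8 on the array being tested, with a median of -0.11 and 0 with an unadjusted p under 0.05. Zfp36, or tristetraprolin, which destabilises messengers with AU-rich ends and is itself an immediate early gene, stood at -1.47 (SE 0.72) with overlapping groups. Zfp36l1 stood at -0.43 (SE 0.20) without overlap, and Cnot7, a deadenylase subunit, at -0.12 (SE 0.093). The list's median was -0.016 without tethered array 1 and -0.28 without tethered array 3.

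Genes known as AP-1 targets gave 9 values below and 7 above 0 among 16 tested of 21 on the array, with a median of -0.045 and 0 with an unadjusted p under 0.05. Ccl2, a monocyte chemoattractant, stood at -1.17 (SE 0.62) without overlap, and its difference was -3.16 at number 1, -0.01 at number 2 and -0.33 at number 3. Fst, which encodes the activin inhibitor follistatin, stood at 0.15 (SE 0.081), wholly higher, and Mt1, a metallothionein, at -0.18 (SE 0.17). The list's median was 0.046 without tethered array 1 and -0.18 without tethered array 3.

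The other immediate early genes gave 21 of 23 values below 0, of 24 genes on the array, with a median of -0.36. Of these, 3 had an unadjusted p under 0.05, all below 0, and 4 lay wholly lower with 0 wholly higher. They were Ier3, Klf6 at -0.36 (SE 0.12), a zinc-finger factor, and Egr1 at -2.15 (SE 0.87), an early growth response factor, and the fourth without overlap was Dusp1. Egr1 differed by -4.86 at number 1, -1.51 at number 2 and -0.09 at number 3, so its size by number was ordered as for Fos and Junb. Without both arrays numbered 1 the median of the list was -0.11. This list was drawn up knowing that such genes had lower values on these arrays, so its counts are a description.

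**Figure D5:**
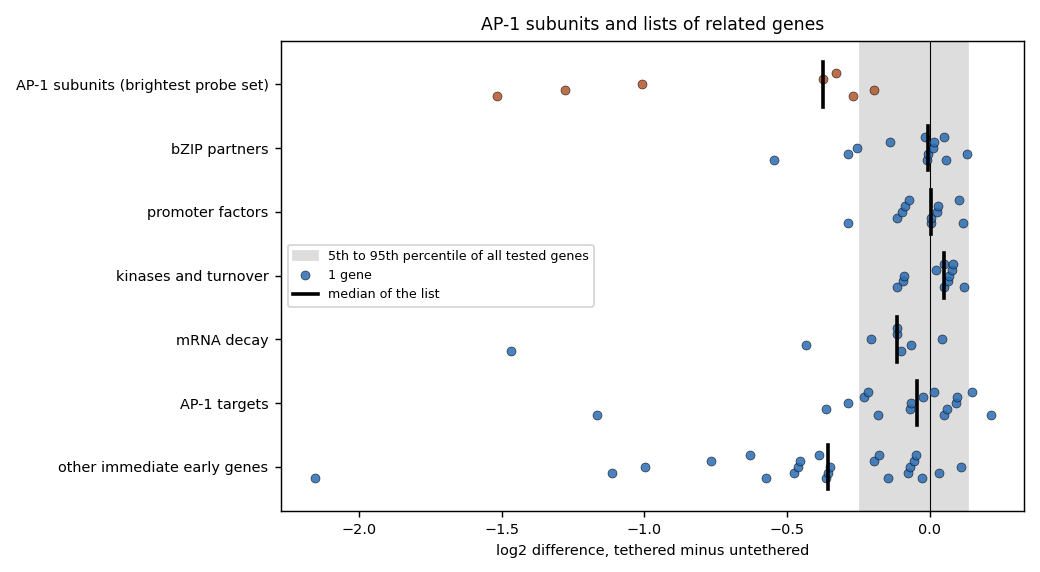
Log2 difference, tethered minus untethered, of each tested gene (dots) in the AP-1 subunits and 6 related lists, with list medians as black bars and the 5th to 95th percentile of all tested genes (-0.24 to 0.13) shaded. Several AP-1 subunits and immediate early genes lie far to the left, while the dots of kinases lie within the shaded range.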

How the data were processed

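The authors deposited a linear intensity for each probe set on each array. Biotin-labelled RNA was hybridised to Affymetrix arrays, per the labels' protocols. The summarising and scaling steps: not given in the sources used here. Values under a floor of 16 were raised to it before log2. Names came from the platform annotation and were updated by gene ID to RefSeq (GRCm38.p6), which held 99.4% of the IDs; 34945 probe sets had 1 symbol, 932 several and 9160 none, and 64 controls were left out. The 22518 probe sets whose mean log2 lay above the median were fitted with limma 3.58.1 (R 4.3.3), with no covariate, two-sided, with Benjamini-Hochberg adjustment over all. The procedure was run on simulated data drawn independently for each array, without the differences by array number seen here. That run therefore does not show how well differences would be recovered on these arrays. The members and lists were chosen with earlier results of these data known. Named genes are all members, the 3 of smallest p in each list, and the 3 most like each member. Dusp1, Pdgfrb and the genes with the array order of Fos were named after their values were seen. Alternatives were scaling, floor, filter, moderation, a replicate block, omission of arrays and the summary of probe sets. The number of arrays limits the precision.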

Additional observations from a re-analysis of the deposited data

How the results depend on the processing

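Limma called 0 probe sets, and 0 genes of each list, under every alternative run. The number at an unadjusted p under 0.05 was 1782 without the filter, 159 with an upper quartile filter, 887 without empirical Bayes, 1487 without both arrays numbered 1, and 237 to 1488 with 1 array left out. The median of the member probe sets ran from -0.52 to -0.26 with 1 array left out and was -0.27 after quantile normalization, and 5 of them then lay wholly lower, without Fosb. With 1 array left out 6 or 7 did so. Groups that do not overlap stay apart when an array is removed, so that count could not fall. The kinase list's median was 0.097 after quantile normalization, -0.065 without both arrays numbered 1 and 0.015 to 0.074 with 1 array left out. That of the immediate early genes was -0.11 without both arrays numbered 1, and -0.49 to -0.26 with 1 array left out. The median of the promoter factors was -0.045 when each gene's probe sets were averaged, and -0.040 to -0.0018 with 1 array left out, that of the zipper partners -0.13 to 0.042, that of the decay genes -0.28 to -0.016 and that of the AP-1 targets -0.18 to 0.046. The cause of these changes was not tested. The labels do not say whether same-numbered arrays were paired. Their deviations from group means correlated at 0.71, 0.075 and 0.71 over numbers 1, 2 and 3, and the main fit did not pair them. The differences by number given above set such arrays side by side as a description only. Both arrays numbered 1 correlated best with each other, as did both numbered 3, but those numbered 2 did not. With a replicate block the number at an unadjusted p under 0.05 was 1232 and the calls stayed at 0.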
